A study of Mus musculus with 6 samples.

Results

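The BCL2 family decides whether a B-cell lives or dies by the mitochondrial route of apoptosis, and 10 of its genes were followed here in GC (germinal center) B-cells of the mouse by single cell RNA-seq. They were the rows of the count tables whose gene symbol was *Bcl2*, *Bcl2l1*, *Mcl1*, *Bcl2a1b*, *Bax*, *Bak1*, *Bcl2l11*, *Bid*, *Bbc3* or *Pmaip1*, so 10 of 31053 features, and all 10 were measured in all 6 libraries. The genes were described in GC B-cells, in naive or memory B-cells and in plasma-lineage cells of every library. The study sorted cells from the spleens of mice given sheep red blood cells, an antigen that sets off a GC reaction. It asked at which step of GC B-cell maturation the dosage of *Smc3*, a core subunit of cohesin, becomes limiting. All mice carried Cre recombinase under the Cγ1 heavy chain locus (Cgamma1-Cre), which is switched on in B-cells once they enter the GC reaction. Both copies of *Smc3* were intact in 3 libraries (wild-type control, *Smc3* wt/wt), and the other 3 came from mice heterozygous for *Smc3* (labelled *Smc3* +/-, written *Smc3* wt/-). Cells in which this Cre was never active would still hold both copies. The methods of the study name as many *Smc3* wt/- mice as there are libraries of that group here, and more *Smc3* wt/wt mice, but the sources used here tie no mouse to a library and give no age for them, so p-values measure the spread between these libraries. The deleted part of *Smc3* lies outside the 3′ end that was counted, so the reads do not show the deletion itself. The level of *Smc3* transcript was not used to check a label.

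The members fall into 3 functional groups. *Bcl2*, *Bcl2l1* (BCL-XL), *Mcl1* and *Bcl2a1b* (A1) encode anti-death proteins that hold the killers in check at the outer mitochondrial membrane. *Bax* and *Bak1* encode the effectors that form pores in that membrane and release cytochrome c. *Bcl2l11* (BIM), *Bid*, *Bbc3* (PUMA) and *Pmaip1* (NOXA) encode BH3-only proteins, which sense stress and either block the anti-death proteins or activate the effectors. GC B-cells are known for switching *Bcl2* off under BCL6, and the loss of this switch through translocation of *BCL2* is a hallmark of follicular lymphoma. Long-lived plasma cells are known to depend on MCL1.

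*Bcl2a1b* has near-identical copies, which bears on how it can be counted, so the start regions of the 3 copies detected here are shown first. Capitals mark the positions at which the 3 sequences are not the same, 5′ to 3′ on each gene's own strand.
Bcl2a1a (chr9:88956805-88956884, plus strand): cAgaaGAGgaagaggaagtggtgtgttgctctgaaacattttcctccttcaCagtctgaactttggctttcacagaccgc
Bcl2a1b (chr9:89199114-89199193, plus strand): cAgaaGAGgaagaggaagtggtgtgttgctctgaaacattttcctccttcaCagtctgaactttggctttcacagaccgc
Bcl2a1d (chr9:88731886-88731965, minus strand): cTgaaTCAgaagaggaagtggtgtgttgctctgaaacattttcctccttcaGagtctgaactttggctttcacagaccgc
Over these 80 bases *Bcl2a1a* and *Bcl2a1b* were identical, and 75 positions were the same in all 3. At the 3′ end, where reads of this kit fall, 159 of the 410 possible reads of 91 bases from the last 500 bases of the *Bcl2a1b* transcript also occurred in *Bcl2a1d* or *Bcl2a1a* (38.8%). Such reads cannot be assigned to 1 gene and were dropped, so *Bcl2a1b* values are uncertain. The GRCm38 annotation (GENCODE M21) also places *Gm29094* on the same strand at the 3′ end of *Bcl2a1b*.

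Promoter windows from RefSeq (GRCm38.p6, 250 bases before to 50 bases after a start) were found for 9 members, with 14 windows in all. They were searched on both strands for the NF-kappaB consensus (kappaB) and for the forkhead core GTAAACA, since REL and FOXO factors are known regulators of *Bcl2l1* and *Bcl2l11*. Of 32851 promoter windows, 4.51% held the kappaB motif and 3.65% the forkhead motif. The kappaB motif occurred in 1 of 3 windows of *Bcl2l1* and the forkhead motif in 1 of 2 windows of *Bcl2l11*, and the 2 motifs did not overlap. *Bbc3* held each motif in 1 of its 3 windows, and the window of *Bcl2a1b* held neither. The matches are shown in capitals.
Bcl2l1, kappaB (chr2:152830910-152830967, minus strand): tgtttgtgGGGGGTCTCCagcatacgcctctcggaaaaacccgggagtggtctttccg
Bcl2l11, forkhead (chr2:128125788-128125857, plus strand): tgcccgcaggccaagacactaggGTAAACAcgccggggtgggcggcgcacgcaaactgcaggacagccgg
A match describes letters in these windows and not a bound site.

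The 6 libraries held 22939 barcodes and 5223325 to 35354257 unique molecular identifiers (UMIs) each, and 20809 cells were kept. Levels are given as CPM (counts-per-million), the UMIs of a gene scaled to all UMIs outside the immunoglobulin genes, summed over all cells of a class in a library, and are listed in the order of replicates 1, 2 and 3. GC B-like cells numbered 343 to 3189 per library, naive/memory-like cells 109 to 590 and plasma-lineage cells 34 to 1749. The members were left out of the genes used to cluster the cells. Pairs of libraries shared 4 to 43 cell barcodes. The library labelled *Smc3* wt/- replicate 2 stood apart. Of its UMIs, 51.9% fell in immunoglobulin genes (2.37% to 3.90% in the other 5), plasma-lineage cells made up 49.2% of its cells against 1.37% to 3.36%, and GC B-like cells 9.64% against 64.1% to 69.2%. In the cells of that library that clustered as GC B-like, the summed GC marker list stood at 579 CPM against 2067 to 2773 CPM elsewhere, with all 9 markers detected in every library. The naive/memory list stood there at 2356 CPM against 1148 to 1213 CPM, and the myeloid list at 613 CPM against 168 to 205 CPM. A further 3 clusters with GC markers, of 3148, 718 and 56 cells, were left unnamed and stand outside the GC B-like class and its states. With them GC cells would make up 77.3% to 90.1% of cells in the 5 libraries. Counting them as GC B-like turned no direction and no call of the members against the other classes, or between genotypes in GC B-like cells. The comparisons of states were not refitted with them. Because of the library that stood apart, means ± SD are given over the other 5 libraries (n = 5), and tests were repeated without it. No call of a member between classes or states was lost without it, and those of *Bcl2a1b* (naive/memory-like against GC B-like) and *Mcl1* (centrocyte-like against centroblast-like) were gained. Summed UMIs alone do not tell fewer expressing cells from less RNA per cell. Median UMIs per cell, immunoglobulin included, were 4408.5 to 7367 in GC B-like, 1870 to 2792 in naive/memory-like and 11348 to 19236 in plasma-lineage cells. A higher CPM in a class therefore need not mean more UMIs per cell.

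*Bcl2* transcript was low in GC B-like cells and high in naive/memory-like cells. In GC B-like cells it stood at 3.09, 2.21 and 2.78 CPM in the *Smc3* wt/wt controls and at 3.17, 78.6 and 2.57 CPM in the *Smc3* wt/- libraries. In naive/memory-like cells the values were 167, 131 and 138 CPM, and 130, 241 and 150 CPM. The classes did not overlap, and in both of them the library labelled *Smc3* wt/- replicate 2 was the highest. Naive/memory-like cells exceeded GC B-like cells by 5.13 on the log2 scale (SE 0.47, adjusted p = 3.51e-07, edgeR quasi-likelihood test with the library as a block and Benjamini-Hochberg adjustment, used for every adjusted p unless stated otherwise). Without the library labelled *Smc3* wt/- replicate 2 the difference was 6.01. Plasma-lineage cells held 7.12, 11.5 and 15.8 CPM, and 9.78, 62.8 and 13.9 CPM. They lay between the other classes in 5 of 6 libraries and below GC B-like cells in the library labelled *Smc3* wt/- replicate 2. They differed from naive/memory-like cells by -3.30 on the log2 scale (adjusted p = 5.41e-05). Over the 5 libraries the means were 143 ± 15.4 CPM in naive/memory-like, 11.6 ± 3.38 CPM in plasma-lineage and 2.76 ± 0.39 CPM in GC B-like cells. The T cell-like cells of the same libraries, which are known to express *Bcl2*, held 153 to 307 CPM.

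In the library labelled *Smc3* wt/- replicate 2, another gene of naive and memory B-cells was high beside *Bcl2* in GC B-like cells. *Ccr6*, a chemokine receptor of memory and naive cells, stood at 106 CPM there against 0.842 to 2.36 CPM in the other 5 libraries. The GC regulator *Rgs13* stood at 100.5 CPM against 477 to 880 CPM. The part of these cells in the *Bcl2* level of that library was not tested.

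Among the 3 classes, *Bcl2l1* had its highest mean level in plasma-lineage cells and its lowest in naive/memory-like cells. In plasma-lineage cells it stood at 21.4, 25.3 and 20.1 CPM in the *Smc3* wt/wt controls and at 26.1, 12.3 and 27.7 CPM in *Smc3* wt/- libraries. In GC B-like cells the values were 21.3, 11.6 and 13.8 CPM, and 12.8, 10.5 and 12.3 CPM. Plasma-lineage cells were above GC B-like cells in every library, although by little in *Smc3* wt/wt replicate 1. The difference was 1.08 on the log2 scale (SE 0.22, adjusted p = 0.000604). Naive/memory-like cells held 1.72 to 11.5 CPM from only 1 to 11 UMIs per library. They were 0.97 lower than GC B-like cells on the log2 scale (SE 0.29, adjusted p = 0.00968), and plasma-lineage cells were 2.05 higher than naive/memory-like cells (adjusted p = 2.16e-05).

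*Mcl1*, whose protein is short-lived and must be made all the time, varied least among the anti-death genes. GC B-like cells held 98.8, 75.5 and 88.5 CPM in the *Smc3* wt/wt controls and 70.4, 84.5 and 70.5 CPM in *Smc3* wt/- libraries. Naive/memory-like cells held 101, 109 and 122 CPM, and 123, 163 and 118 CPM, so each library had a higher *Mcl1* CPM there than in its GC B-like cells. This is a share of UMIs and not an amount per cell. In *Smc3* wt/wt replicate 2, 358 naive/memory-like cells held 127 *Mcl1* UMIs and 3189 GC B-like cells held 1844. Plasma-lineage cells held 81.9, 96.5 and 103 CPM, and 88.1, 142 and 130 CPM, which overlapped with both other classes. Against GC B-like cells the log2 difference was 0.76 in naive/memory-like (SE 0.16, adjusted p = 0.000603) and 0.77 in plasma-lineage cells (SE 0.16, adjusted p = 0.000595). The second value depended on scaling, since it was 0.40 (adjusted p = 0.0169) when libraries were scaled by their totals alone, and on the library labelled *Smc3* wt/- replicate 2, without which it was 0.59.

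*Bcl2a1b*, an NF-kappaB target in B-cells, was low in plasma-lineage cells. It stood there at 10.7, 27.6 and 19.3 CPM in the *Smc3* wt/wt controls and at 31.0, 7.85 and 28.9 CPM in *Smc3* wt/- libraries. GC B-like cells held 147, 125 and 94.5 CPM, and 117, 308 and 112 CPM, so the classes did not overlap. The difference was -2.58 on the log2 scale (SE 0.30, adjusted p = 2.59e-06), and -2.84 against naive/memory-like cells (adjusted p = 1.02e-06). Naive/memory-like cells, at 146, 134 and 127 CPM and at 156, 204 and 138 CPM, differed from GC B-like cells by 0.26 (adjusted p = 0.384). Without the library labelled *Smc3* wt/- replicate 2 this difference was 0.55 (adjusted p = 1.85e-06), so 1 library decided that call. In that library the copies *Bcl2a1d* and *Bcl2a1a* were also high in GC B-like cells, at 154 CPM against 41.7 to 89.3 CPM and at 47.5 CPM against 0.907 to 2.81 CPM. Myeloid-like cells, which also express these genes, held 236 CPM of *Bcl2a1b* there, and their part in the GC B-like value was not tested.

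**Figure D1:**
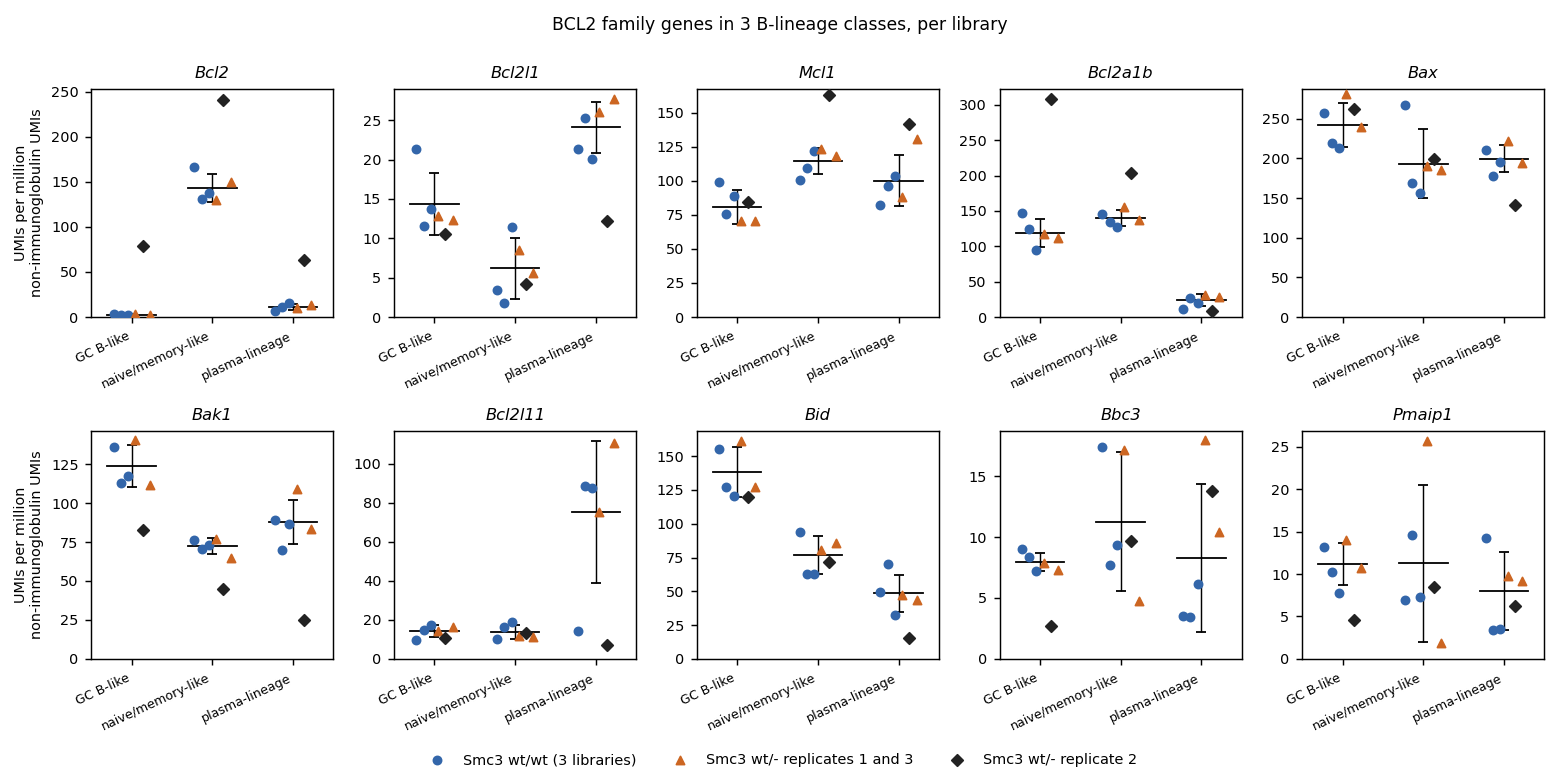
Level of each of the 10 genes (vertical axis, CPM without immunoglobulin UMIs, starting at 0) in GC B-like, naive/memory-like and plasma-lineage cells. Each symbol is 1 library (circles, Smc3 wt/wt; triangles, Smc3 wt/- replicates 1 and 3; diamond, the library labelled Smc3 wt/- replicate 2), and the line and bar are the mean ± SD of the 5 libraries without the diamond. *Bcl2* is high in naive/memory-like cells, *Bcl2a1b* is low and *Bcl2l11* is high in plasma-lineage cells, and the diamond lies apart for *Bcl2* and *Bcl2a1b* in GC B-like cells.

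Of the effectors, *Bak1* was highest in GC B-like cells in all 6 libraries. It stood there at 136, 113 and 117 CPM in the *Smc3* wt/wt controls and at 141, 82.7 and 112 CPM in *Smc3* wt/- libraries. Naive/memory-like cells held 76.4, 70.5 and 73.0 CPM, and 77.1, 44.8 and 65.1 CPM, so each library had less *Bak1* there. The difference was -0.59 on the log2 scale (SE 0.11, adjusted p = 0.000276). Plasma-lineage cells held 89.0, 70.1 and 86.7 CPM, and 109, 24.9 and 83.1 CPM. They differed from GC B-like cells by -0.38 (adjusted p = 0.00846), a call that was lost without the library block (adjusted p = 0.0939). *Ggnbp1* lies on the other strand at the 3′ end of *Bak1*, and whether counting used the strand was not given in the sources used here.

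*Bax* differed less between the classes. GC B-like cells held 258, 219 and 213 CPM in the *Smc3* wt/wt controls and 281, 262 and 240 CPM in *Smc3* wt/- libraries. Naive/memory-like cells ranged from 156 to 267 CPM with a median of 187 CPM, and plasma-lineage cells from 142 to 222 CPM with a median of 195 CPM. Against GC B-like cells, *Bax* differed by -0.18 in naive/memory-like (adjusted p = 0.0945) and by -0.03 in plasma-lineage cells (adjusted p = 0.790). Both calls depended on scaling. Replacing TMM, the scaling used here, by library totals alone moved the median gene by -0.17 in the first comparison and by -0.37 in the second. With library totals the differences of *Bax* were -0.35 (adjusted p = 0.0219) and -0.37 (adjusted p = 0.0135), where the median gene stood at -0.15 and -0.40.

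Among the BH3-only genes, *Bcl2l11* was raised in plasma-lineage cells. It stood there at 14.2, 88.5 and 87.5 CPM in the *Smc3* wt/wt controls and at 75.0, 7.26 and 111 CPM in *Smc3* wt/- libraries. GC B-like cells held 9.55, 14.8 and 17.5 CPM, and 14.4, 11 and 16.2 CPM. In 4 libraries the plasma-lineage level was far above the GC B-like level, whereas *Smc3* wt/wt replicate 1 rested on 4 UMIs and the library labelled *Smc3* wt/- replicate 2 was lower than its GC B-like cells. The difference was 2.31 on the log2 scale (SE 0.31, adjusted p = 1.15e-05), and 2.66 without that library. Against naive/memory-like cells, which held 10.4 to 18.8 CPM, it was 2.05 (adjusted p = 0.000186). Single cells weighed heavily in this sum. In *Smc3* wt/wt replicate 2, 33 of the 77 UMIs came from 1 cell, and in *Smc3* wt/wt replicate 3, 24 of 100 did.

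*Bid*, which links death receptors to mitochondria once caspase-8 has cut it, fell stepwise from GC B-like to naive/memory-like to plasma-lineage cells. GC B-like cells held 155, 127 and 121 CPM in the *Smc3* wt/wt controls and 162, 120 and 127 CPM in *Smc3* wt/- libraries. Naive/memory-like cells held 93.7, 62.8 and 62.6 CPM, and 80.5, 72.0 and 85.8 CPM. Plasma-lineage cells held 49.9, 70.1 and 32.4 CPM, and 47.3, 15.2 and 43.9 CPM. GC B-like cells were highest in every library, and naive/memory-like cells exceeded plasma-lineage cells in 5 of 6. The differences from GC B-like cells were -0.64 in naive/memory-like (SE 0.16, adjusted p = 0.00302) and -1.44 in plasma-lineage cells (SE 0.17, adjusted p = 2.77e-06), and plasma-lineage cells differed from naive/memory-like cells by -0.80 (adjusted p = 0.00140). *Bcl2l13* overlaps the 3′ end of *Bid* on the other strand.

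*Bbc3* and *Pmaip1*, both targets of p53, were low, and their classes overlapped. *Bbc3* stood at 2.74 to 8.98 CPM in GC B-like, 4.71 to 17.4 CPM in naive/memory-like and 3.45 to 17.9 CPM in plasma-lineage cells. *Pmaip1* stood at 4.57 to 14.0 CPM, 1.89 to 25.7 CPM and 3.45 to 14.2 CPM. For *Bbc3* the difference between plasma-lineage and GC B-like cells was 0.89 on the log2 scale (SE 0.38, adjusted p = 0.0603), and its plasma-lineage values rested on as few as 1 UMI.

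Naive/memory-like cells thus differed from GC B-like cells in 5 of the 10 members, where 57.1% of the 7636 genes tested did. Of these 2 were higher (28.7% of genes) and 3 lower (28.4%). Without the library labelled *Smc3* wt/- replicate 2 there were 3 higher (37.2% of genes) and 3 lower (28.0%) of 9 members tested, against 65.2% of genes in either direction. Plasma-lineage cells differed from GC B-like cells in 7 members (53.0% of genes), 4 higher (26.5%) and 3 lower (26.5%). Without that library 4 of 9 were higher (28.4%) and 3 lower (32.6%), against 60.9% in all. Against naive/memory-like cells, plasma-lineage cells differed in 5 members (60.1%), 2 higher (32.0%) and 3 lower (28.1%), and without that library in 2 higher (29.5%) and 3 lower (35.3%) of 9, against 64.8%. The shares among the members lay near those of all genes. The split of calls over all genes depended on scaling. With library totals 1618 genes were higher and 2597 lower in naive/memory-like than in GC B-like cells (2189 and 2172 with TMM), 1216 and 3539 in plasma-lineage against GC B-like cells (2026 and 2020), and 1807 and 2696 in plasma-lineage against naive/memory-like cells (2444 and 2142), with 6, 8 and 5 members called. In the plot of fold changes, *Bcl2* and *Bcl2a1b* moved in opposite directions between plasma-lineage and GC B-like cells, as did *Bcl2l11* and *Bid*. The call of *Bcl2* was lost with plasmablast-like cells only (0.47, adjusted p = 0.593) and without the library block.

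**Figure D2:**
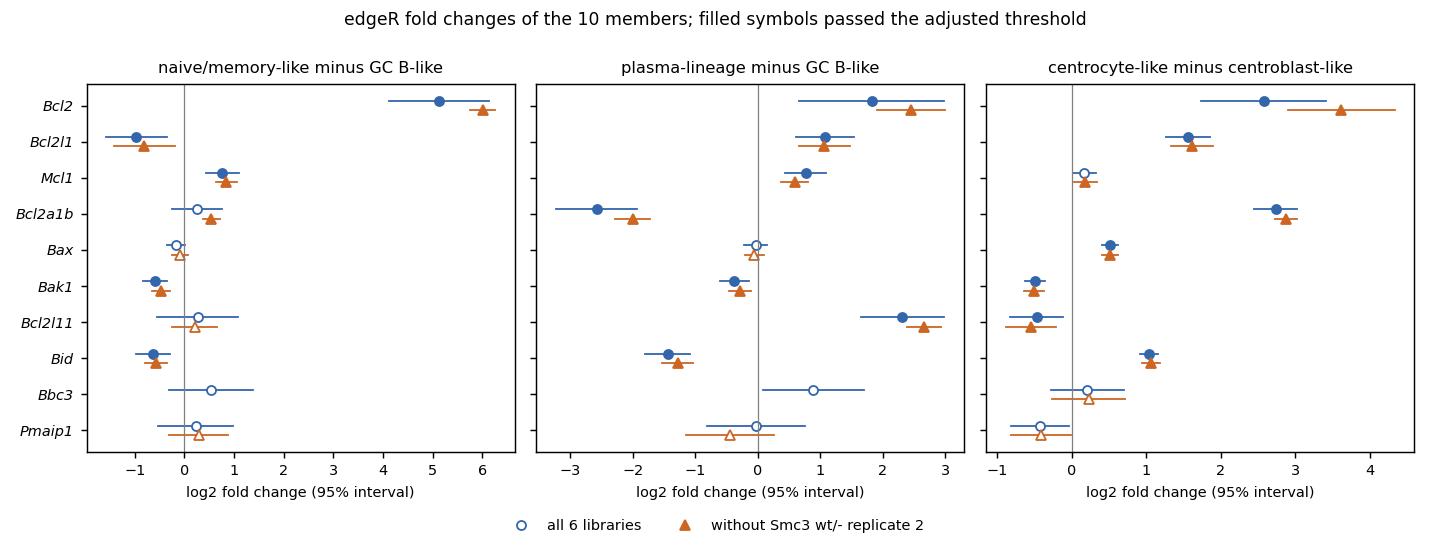
Log2 fold change of each member (horizontal axis) with its 95% interval in 3 comparisons, from edgeR over all 6 libraries (circles) and without the library labelled Smc3 wt/- replicate 2 (triangles). Filled symbols passed an adjusted p of 0.05. *Bcl2* reached 5.13 in naive/memory-like cells, *Bcl2l11* 2.31 in plasma-lineage cells and *Bcl2a1b* 2.74 in centrocyte-like cells, and *Bbc3* had too few UMIs to be tested without that library in the first and second panels.

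Plasma-lineage cells were made up of plasmablast-like cells, which also held cell cycle genes, and of plasma cell-like cells with a higher immunoglobulin load (a median of 69.6% of UMIs per cell against 26.5%). Outside the library labelled *Smc3* wt/- replicate 2 there were 238 plasmablast-like cells but only 83 plasma cell-like cells, 12 to 23 per library, so their UMIs were pooled over 5 libraries, with exact Poisson 95% intervals that cover counting error only and no test. *Bcl2* stood at 4.38 CPM (2.45 to 7.22) in plasmablast-like and at 94.5 CPM (65.1 to 133) in plasma cell-like cells. *Bcl2l11* went the other way, with 92.9 CPM (82.9 to 104) in plasmablast-like and 14.3 CPM (4.65 to 33.4) in plasma cell-like cells. *Mcl1* stood at 97.5 CPM (87.4 to 109) and 166 CPM (126 to 215), and *Bak1* at 90.0 CPM (80.2 to 101) and 45.8 CPM (26.2 to 74.4). The intervals of these 4 members did not overlap, whereas those of the other 6 did. The library labelled *Smc3* wt/- replicate 2 held 327 plasmablast-like and 1422 plasma cell-like cells, and there *Mcl1* stood at 142.4 and 141.5 CPM, while *Bcl2* stood at 39.8 and 69.0 CPM, *Bcl2l11* at 16.3 and 4.83 CPM and *Bak1* at 49.4 and 18.3 CPM. Myeloid markers gave a summed 1043 to 1598 CPM in plasma cell-like cells, of which *Cst3* held 412 UMIs over the 5 libraries, *Lyz2* 6, *Itgam* 6 and *Fcer1g* 5, while the other 10 markers of the list were at 0 there. In the library labelled *Smc3* wt/- replicate 2 the list summed to 1671 CPM with all 14 markers detected. *Cst3* held most of it there too (9048 UMIs), followed by *S100a8* (510), *Lyz2* (367), *S100a9* (279) and *Camp* (217). The part of this list in the levels was not tested.

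Library by library, plasmablast-like cells held *Bcl2l11* at 16.7, 95.5 and 96.2 CPM in the *Smc3* wt/wt controls and at 79.1, 16.3 and 119 CPM in *Smc3* wt/- libraries. The library labelled *Smc3* wt/- replicate 2, in which 1422 of 1749 plasma-lineage cells were plasma cell-like, was thus also low in its plasmablast-like cells. *Bcl2* in plasmablast-like cells was at 0, 3.82 and 3.93 CPM and at 3.44, 39.8 and 7.50 CPM, where 0 UMIs allowed up to 12.6 CPM. When plasma-lineage cells were restricted to plasmablast-like cells, *Bcl2l11* exceeded GC B-like cells by 2.52 on the log2 scale (adjusted p = 6.09e-08), but *Bcl2* no longer did (0.47, adjusted p = 0.593). Over all plasma-lineage cells *Bcl2* had exceeded GC B-like cells by 1.83 (adjusted p = 0.0104), a call that was also lost without the library block (1.65, adjusted p = 0.143).

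**Figure D3:**
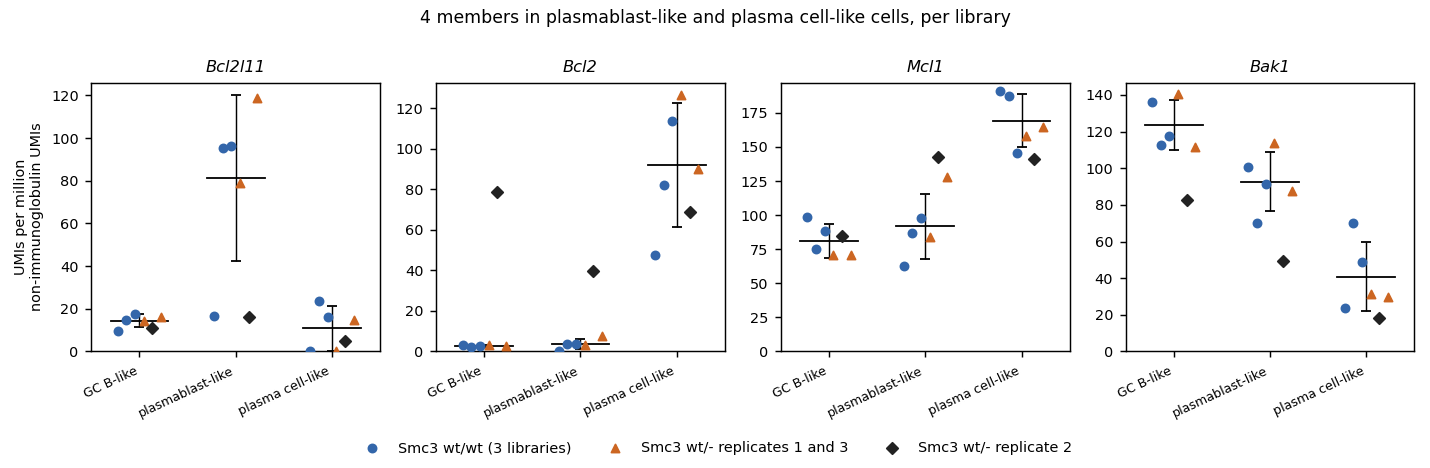
Level of 4 members (vertical axis, CPM without immunoglobulin UMIs) in GC B-like, plasmablast-like and plasma cell-like cells. Symbols are libraries as in the plot of the 10 genes, and the line and bar are the mean ± SD of 5 libraries. *Bcl2l11* is high in plasmablast-like cells of 4 libraries, *Bcl2* and *Mcl1* are higher in plasma cell-like than in plasmablast-like cells of the 5 libraries, the diamond is level between them for *Mcl1*, and each plasma cell-like point outside the diamond rests on 12 to 23 cells.

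GC B-like cells were divided by their markers into centroblast-like cells (dividing cells of the dark zone), S-phase cells, centrocyte-like cells (light zone cells that compete for T-cell help) and recycling-like cells, whose leading genes included *Srm* and *Hspd1*. The top 10 genes of the centrocyte-like cluster included *Nfkbid*, *Il4i1*, *Cd83*, *Egr3* and *Myc* together with *Bcl2a1b* and *Bcl2a1d*, although neither of the last pair was used to form the clusters. *Myc* is on the marker list of recycling cells, and the recycling-like cluster had only 1 marker of that list, *Srm*, among its own top 10. Between centroblast-like and centrocyte-like cells 7 of the 10 members differed, where 54.6% of 8769 genes did. In centrocyte-like cells 5 were higher (28.0% of genes) and 2 lower (26.7%), and without the library labelled *Smc3* wt/- replicate 2 there were 6 higher (26.6%) and 2 lower (26.4%), against 53.0% in all. *Bcl2a1b* stood at 90.1, 70.5 and 62.2 CPM in centroblast-like cells of the *Smc3* wt/wt controls and at 87.4, 202 and 77.9 CPM in those of *Smc3* wt/- libraries. In centrocyte-like cells the values were 691, 642 and 451 CPM, and 453, 500 and 529 CPM. The lowest centrocyte-like value was above the highest centroblast-like value, and the difference was 2.74 on the log2 scale (SE 0.14, adjusted p = 1.60e-19). In recycling-like cells *Bcl2a1b* was back at 93.8 to 123 CPM in the 5 libraries, and at 465 CPM in the library labelled *Smc3* wt/- replicate 2.

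*Bcl2l1* rose in centrocyte-like cells as well. Centroblast-like cells held 17.2, 13.3 and 13.6 CPM in the *Smc3* wt/wt controls and 13, 18.1 and 9.93 CPM in *Smc3* wt/- libraries. Centrocyte-like cells held 90.7, 32.0 and 37.6 CPM, and 32.8, 11.3 and 36.3 CPM. The library labelled *Smc3* wt/- replicate 2, with 5 UMIs in each state, was the only one without a higher centrocyte-like level. The difference was 1.56 on the log2 scale (SE 0.15, adjusted p = 5.92e-12). Over the other 5 libraries the means were 13.4 ± 2.57 CPM in centroblast-like and 45.9 ± 25.2 CPM in centrocyte-like cells. The unnamed cluster of 3148 cells with GC markers, which is outside the states, held 12.6 ± 2.08 CPM, near the centroblast-like level.

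*Bid* and *Bax* were higher in centrocyte-like cells, and *Bak1* was lower. *Bid* stood at 113, 107 and 106 CPM in centroblast-like cells of the *Smc3* wt/wt controls and at 137, 119 and 104 CPM in those of *Smc3* wt/- libraries. In centrocyte-like cells it stood at 263, 213 and 222 CPM, and at 255, 142 and 223 CPM. Every centrocyte-like value exceeded every centroblast-like value, by 1.04 on the log2 scale (SE 0.06, adjusted p = 1.10e-17). Over the 5 libraries the unnamed cluster of 3148 cells held 156 ± 9.08 CPM of *Bid*, against 235 ± 22.3 CPM in centrocyte-like cells. *Bax* differed by 0.51 (SE 0.05, adjusted p = 3.35e-11), with 198 ± 26.5 CPM in centroblast-like and 278 ± 40.2 CPM in centrocyte-like cells. *Bak1* differed by -0.49 (SE 0.07, adjusted p = 5.54e-08), from 146 ± 9.58 CPM to 102 ± 16.8 CPM. Both effectors were thus measured in both states, but their difference had opposite signs.

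*Bcl2* stood at 0.647 to 1.43 CPM in centroblast-like cells and at 8.82 to 16.7 CPM in centrocyte-like cells of the 5 libraries, and at 57.8 and 94.6 CPM in the library labelled *Smc3* wt/- replicate 2. The difference was 2.58 on the log2 scale (SE 0.41, adjusted p = 1.29e-06) and 3.62 without that library. It was lost without the library block (adjusted p = 0.0643). Even so, the mean of 13.4 ± 3.12 CPM in centrocyte-like cells was far below the 143 CPM of naive/memory-like cells. The unnamed cluster of 3148 cells held 3.77 ± 4.74 CPM of *Bcl2* over the 5 libraries. The naive/memory marker list stood at 1787 to 2143 CPM in centrocyte-like cells against 1287 to 1384 CPM in centroblast-like cells of the 5 libraries, and at 5586 to 5988 CPM in naive/memory-like cells, and its part in the *Bcl2* difference was not tested. The T cell list was also higher, at 232 to 286 CPM against 62.1 to 95.7 CPM, with *Lck* at 1735 UMIs over the 5 libraries in centrocyte-like cells and 1219 in centroblast-like cells. *Trac* held 46 and 24 UMIs, *Cd3d* 7 and 26, *Cd3e* 2 and 10, and *Trbc2* 0 and 18, and the part of this list was not tested either.

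*Bcl2l11* was lower in centrocyte-like cells by 0.47 on the log2 scale (SE 0.17, adjusted p = 0.0218), with 8.58 to 25 CPM in centroblast-like and 3.13 to 20.3 CPM in centrocyte-like cells. This call was not stable. It was lost with DESeq2 (adjusted p = 0.0576) and without *Smc3* wt/- replicate 1 (adjusted p = 0.0512), *Smc3* wt/wt replicate 2 (adjusted p = 0.0834) or *Smc3* wt/wt replicate 3 (adjusted p = 0.233), and the sign turned at a clustering resolution of 1 (0.08, adjusted p = 0.718). *Mcl1* differed by 0.17 (adjusted p = 0.0644), and by 0.18 without the library labelled *Smc3* wt/- replicate 2 (adjusted p = 0.0469).

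Recycling-like cells differed from centrocyte-like cells in 9 of the 10 members, where 54.6% of genes did, with 2 higher (26.5% of genes) and 7 lower (28.1%). Without the library labelled *Smc3* wt/- replicate 2 there were again 2 higher (30.5%) and 7 lower (23.2%), against 53.7%. *Bcl2l1* fell by 1.70, *Bcl2a1b* by 2.09, *Bcl2* by 1.5, *Mcl1* by 0.56 and *Bid* by 0.53 on the log2 scale (adjusted p = 1.93e-12, 1.83e-16, 0.000372, 1.99e-07 and 7.15e-10). *Bcl2l11* was 0.90 lower (adjusted p = 0.000487). Every anti-death member thus had a lower CPM in recycling-like than in centrocyte-like cells. *Bak1* was 0.28 higher (adjusted p = 0.000794) and *Bax* 0.17 higher (adjusted p = 0.00334). Recycling-like cells held a median of 12873 to 23646 UMIs per cell, the deepest of the 4 states, and centrocyte-like cells 3693 to 6162. A lower CPM in recycling-like cells thus need not mean fewer UMIs of a member per cell. Without the library block 5 members were past the threshold. S-phase cells, in turn, differed from centroblast-like cells in 3 members (52.1% of genes), 2 higher (24.8%) and 1 lower (27.3%), the same counts as without that library (26.0% and 25.7%, 51.6% in all).

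**Figure D4:**
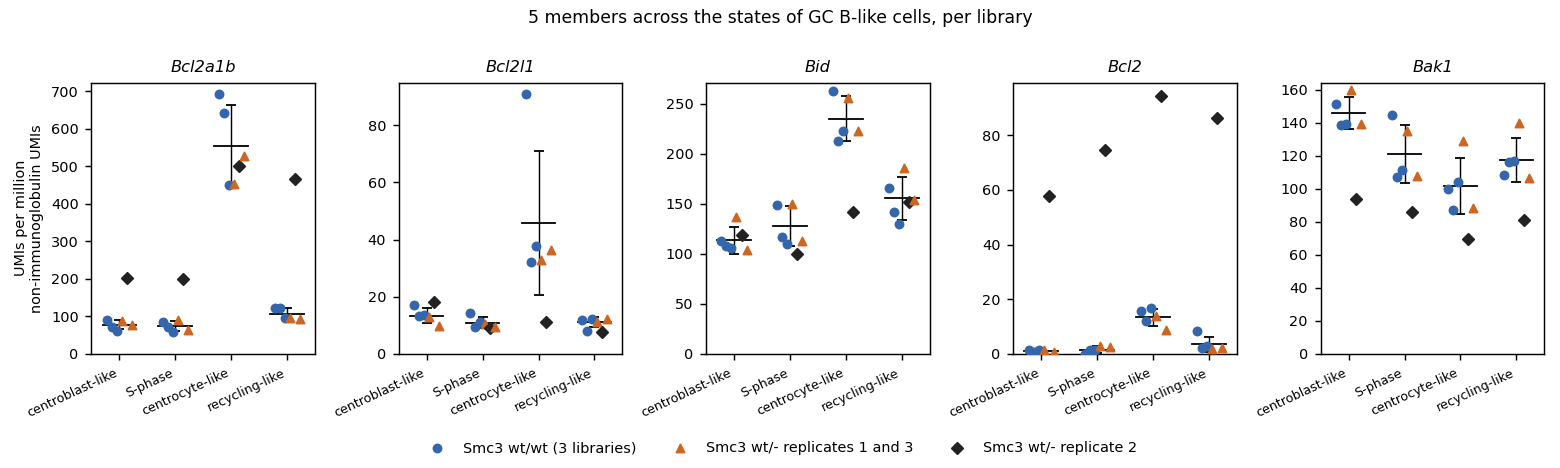
Level of 5 members (vertical axis, CPM without immunoglobulin UMIs) in the 4 states of GC B-like cells. Symbols are libraries as in the plot of the 10 genes, and the line and bar are the mean ± SD of 5 libraries. *Bcl2a1b*, *Bcl2l1*, *Bid* and *Bcl2* are highest in centrocyte-like cells of the 5 libraries, while *Bak1* is highest in centroblast-like cells.

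Between the genotypes no member differed past the threshold in any class. In GC B-like cells 0 of the 10840 genes tested were called by edgeR (0.0%), with 186 at an unadjusted p under 0.05, whereas 2 were called by DESeq2. In naive/memory-like cells 0 of 7009 and in plasma-lineage cells 0 of 5975 genes were called by edgeR, with 135 and 267 at an unadjusted p under 0.05, and none by DESeq2. In GC B-like cells the log2 difference of *Smc3* wt/- from *Smc3* wt/wt was -0.19 for *Mcl1* (95% interval -0.55 to 0.17), 0.21 for *Bax* (-0.06 to 0.49), -0.10 for *Bak1* (-0.46 to 0.26) and 0.05 for *Bid* (-0.24 to 0.34). These intervals leave room for changes of moderate size. In the fit without the library labelled *Smc3* wt/- replicate 2, *Mcl1* differed by -0.33 (-0.60 to -0.05, adjusted p = 1, unadjusted p = 0.0254), *Bax* by 0.16 (-0.08 to 0.40), *Bak1* by 0.02 (-0.22 to 0.26) and *Bid* by 0.08 (-0.18 to 0.35). *Bcl2* differed by 3.23 (-0.04 to 6.50), and by 0.09 (-0.45 to 0.63) without the library labelled *Smc3* wt/- replicate 2. *Bcl2a1b* likewise went from 0.61 (-0.39 to 1.61) to -0.10 (-0.46 to 0.26).

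In naive/memory-like cells the genotype difference was 0.36 for *Bcl2* (95% interval -0.23 to 0.96) and 0.31 for *Mcl1* (-0.19 to 0.80), and without the library labelled *Smc3* wt/- replicate 2 it was -0.05 and 0.04. In plasma-lineage cells it was 1.85 for *Bcl2* (-0.12 to 3.82), 0.64 for *Mcl1* (-0.19 to 1.47) and -0.49 for *Bid* (-1.36 to 0.37), and without that library -0.14, 0.15 and -0.20. Across every member tested, the libraries of the genotypes overlapped in GC B-like (10 members), naive/memory-like (7) and plasma-lineage cells (8), where 8.01%, 5.72% and 8.10% of genes did not overlap. *Bcl2l1*, *Bbc3* and *Pmaip1* in naive/memory-like cells and *Bbc3* and *Pmaip1* in plasma-lineage cells had too few UMIs for the test within a class over all 6 libraries. Untested *Bbc3* in plasma-lineage cells did not overlap, at 3.45 to 6.13 CPM (*Smc3* wt/wt) and 10.4 to 17.9 CPM (*Smc3* wt/-). It rested there on 1 to 7 and on 9 to 116 UMIs per library. In centrocyte-like cells *Bcl2l11* did not overlap, with 3.13, 10.5 and 13.6 CPM in the *Smc3* wt/wt controls and 13.9, 20.3 and 18.6 CPM in *Smc3* wt/- libraries, where 7.90% of genes did not overlap. These values rested on 1, 20 and 26 UMIs and on 11, 9 and 38 UMIs, and the difference of 0.67 did not pass the threshold (adjusted p = 1). Tests of whether the genotype effect differed between classes called 0 of 7636 genes with edgeR, with 153 at an unadjusted p under 0.05 for naive/memory-like against GC B-like cells and 665 for plasma-lineage against GC B-like cells. The 665 included *Bbc3* (2.16, 95% interval 0.78 to 3.53) and *Mcl1* (0.76, 0.20 to 1.31), both at adjusted p = 0.552. These tests were run only over all 6 libraries, with the library labelled *Smc3* wt/- replicate 2 included.

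Other genes of the pathway were counted in 3 lists. Of 15 further BCL2 family genes, 5 were tested between the classes. In plasma-lineage against GC B-like cells 2 were higher and 3 lower, with a median of -0.66 on the log2 scale against -0.03 over all genes, of which 26.5% were called in each direction. Leaving out the library labelled *Smc3* wt/- replicate 2 gave 1 higher and 3 lower, where 28.4% and 32.6% of all genes were. The lower ones included *Bcl2a1d* (-2.77, adjusted p = 3.32e-05) and *Bcl2l12* (-1.17). *Bcl2a1d* was 3.04 higher in centrocyte-like than in centroblast-like cells (adjusted p = 2.79e-20), and *Bcl2a1a* 2.34 higher, with the limit on counting near-identical copies given above. *Bad*, a BH3-only gene, was 0.52 lower there and 0.59 lower in naive/memory-like than in GC B-like cells.

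Of 19 genes of the apoptosome and the caspases, 2 were higher and 7 lower in naive/memory-like than in GC B-like cells (median -0.18, against 0.01 over all genes, of which 28.7% were higher and 28.4% lower). *Cycs*, cytochrome c, was 1.32 lower, whereas the inhibitors *Birc3* and *Xiap* were 1.40 and 0.89 higher. In plasma-lineage against GC B-like cells 5 were higher and 6 lower (median -0.29, against -0.03, with 26.5% of all genes called in each direction), with *Cycs* 0.83 higher. In plasma-lineage against naive/memory-like cells 6 were higher and 7 lower, where 32.0% and 28.1% of all genes were. The fit without the library labelled *Smc3* wt/- replicate 2 gave 8 higher and 7 lower of 17 tested, where 29.5% and 35.3% of all genes were. In centrocyte-like against centroblast-like cells, where 28.0% of all genes were higher and 26.7% lower, 7 were higher, led by the nuclease *Endog* (2.16) and *Birc3* (1.73), and 1 was lower, *Apaf1* (-1.10).

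Of 22 upstream regulators and death receptor genes, 19 were tested between the classes. In plasma-lineage against GC B-like cells 6 were higher and 6 lower (median -0.11), where 26.5% of all genes were called in each direction. *Rel*, the NF-kappaB subunit c-Rel, was 3.28 lower (adjusted p = 1.56e-10) and *Nfkb1* 1.64 lower. *Foxo3*, a forkhead factor, was 2.45 higher (adjusted p = 2.06e-06), at only 7.12 to 21.5 CPM. It was also 1.63 higher in naive/memory-like than in GC B-like cells (adjusted p = 0.000334), where *Bcl2l11* differed by 0.27 (adjusted p = 0.576). In centrocyte-like against centroblast-like cells 6 were higher and 6 lower of 18 tested (median 0.13, against 0.00), where 28.0% of all genes were higher and 26.7% lower, with *Rel* 1.35 higher and *Foxo1* 0.84 lower. In naive/memory-like against GC B-like cells 2, *Foxo3* and *Rel*, were higher and 1, the death receptor *Fas*, was 0.72 lower, where 28.7% and 28.4% of all genes were. With the library labelled *Smc3* wt/- replicate 2 left out there were 6 higher and 1 lower, where 37.2% and 28.0% of all genes were. No test linked these regulators to the members.

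Over the 18 sums of library and class, the genes whose log2 CPM followed each member most closely were named by Pearson's r, as a description of points that share libraries and depth. For *Bcl2* these were *Ly6d* (r = 0.986) and *Capg* (0.976), and for *Bcl2a1b* its copy *Bcl2a1d* (0.986) and *Bin1* (0.964). For *Bak1* they were *Sae1* and *Dnajc9* (both 0.978), for *Bid* *Zbtb25* (0.948) and *Rbm38* (0.945), for *Bcl2l11* *Prkcsh* (0.913) and *Rtn3* (0.870), for *Bcl2l1* *Mapk6* (0.906) and *Mmadhc* (0.905), and for *Bax* *Atxn10* (0.906) and *Tmem11* (0.897). *Mcl1* had no gene as close (*Tnrc6b*, 0.835), nor had *Pmaip1* (*Aktip*, 0.783) or *Bbc3* (*Spsb2*, 0.775). Over the 15 sums without the library labelled *Smc3* wt/- replicate 2 the closest gene stayed the same for *Bcl2* (*Ly6d*, 0.990), *Bcl2l1* (*Mapk6*, 0.928) and *Bak1* (*Sae1*, 0.965). It became *Irf8* for *Bcl2a1b* (0.991), *Hnrnpr* for *Bid* (0.950), *H3f3b* for *Bax* (0.929), *Timm8b* for *Bcl2l11* (0.924), *Cd68* for *Mcl1* (0.874), *Tsen54* for *Pmaip1* (0.855) and *1700123O20Rik* for *Bbc3* (0.849).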

How the data were processed

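Cells were profiled by 10x Genomics 3′ single cell RNA-seq in 6 libraries, 3 per genotype. The authors deposited UMI counts per gene and cell barcode, made with Cell Ranger 3.0.2 on mm10, and the submitters' processing notes also name R 4.0.2 and Seurat 4.0.0. Further wild-type libraries that the study integrated were not analysed here. Barcodes with at least 500 genes and at most 10% mitochondrial UMIs were kept (21568), and Scrublet (scanpy 1.11.5) removed 759 as doublets. Cells were integrated and clustered with Seurat 5.3.0 (30 components, 20 neighbours, resolution 0.5) on 1879 variable genes without the members, the pathway lists and the immunoglobulin genes. Of 19 clusters, 14 were named from marker lists. How clusters were scored for names was decided with the clusters in view, so names and shares may differ from those of the study.

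UMIs were summed per library and class, with immunoglobulin genes left out and at least 20 cells required, and tested with edgeR 4.0.16 (quasi-likelihood, TMM, filterByExpr, Benjamini-Hochberg adjustment over all genes tested, threshold 0.05). Comparisons of classes or states within libraries had the library as a block. Comparisons of genotypes were fitted per class. Named genes were the 10 members, up to 2 higher and 2 lower genes per pathway list and comparison, and the 2 genes with the highest r for each member. The members and lists were chosen with earlier results of these data known. Some genes that this rule or the marker lists hold are not reported here. Alternatives were DESeq2 1.42.0, no low-count filter, immunoglobulin genes kept, resolution 1, doublets kept, a replicate block, sex as a covariate, no library block and each library left out. Plasmablast-like cells only, unnamed clusters with GC markers counted as GC B-like, and library totals without TMM were added after seeing the data. Same-numbered libraries of the genotypes correlated in their deviations above 0.1 in all pairs only in naive/memory-like cells (0.285, 0.190 and 0.141). The fits were also run on simulated data, and the outcome is not reported here. Poisson intervals and limits from 0 UMIs cover counting error only.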

Additional observations from a re-analysis of the deposited data

Results flagged for a closer look

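Of 30 values of a member in a class over 6 libraries, 9 had a library far from the others by Dixon's test, where chance flags about 1 in 20. The library labelled *Smc3* wt/- replicate 2 was the distant one in 8 of them. It was high for *Bcl2* in GC B-like cells (78.6 CPM), in naive/memory-like cells (241 CPM) and in plasma-lineage cells (62.8 CPM). It was also high for *Bcl2a1b* in GC B-like (308 CPM) and naive/memory-like cells (204 CPM), and for *Mcl1* in naive/memory-like cells (163 CPM). It was low for *Bak1* in naive/memory-like cells (44.8 CPM) and for *Bbc3* in GC B-like cells (2.74 CPM, from 6 UMIs). The remaining value was *Bcl2l1* in GC B-like cells of *Smc3* wt/wt replicate 1, which was high at 21.3 CPM. What sets these values apart was not tested.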

How the results depend on the processing

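Within libraries, the count of members past the threshold ranged over the fits that left out 1 library from 5 to 6 for naive/memory-like against GC B-like cells, 7 to 8 for plasma-lineage against GC B-like cells, 5 to 5 for plasma-lineage against naive/memory-like cells, 6 to 8 for centrocyte-like against centroblast-like cells, 7 to 9 for recycling-like against centrocyte-like cells and 3 to 3 for S-phase against centroblast-like cells. Without the library block the last 2 counts were 5 (from 9) and 1 (from 3), while the calls over all 8769 genes went from 4786 to 3397 and from 4565 to 2161. At resolution 1 the S-phase count was 5, with 3964 of 8747 genes called. Between genotypes, edgeR called 0 genes in every class and in every fit without 1 library. DESeq2 called 2 in GC B-like and 2 in centroblast-like cells. Without a low-count filter 14 genes were called in naive/memory-like, 46 in plasma-lineage, 21 in centroblast-like and 21 in centrocyte-like cells, and with doublets kept 1 was called in centroblast-like cells. The cause was not tested. The replicate block, in which same-numbered libraries were paired, called 0 genes in every class and changed no member's call.

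Several uncalled values turned in sign. Over the fits that left out 1 library, the genotype difference in GC B-like cells ranged from -0.10 to 0.874 for *Bcl2a1b*, from -0.238 to 0.0247 for *Bak1* and from -0.0339 to 0.104 for *Bid*. That of *Bcl2* ranged from -0.0542 to 0.587 in naive/memory-like cells and from -0.143 to 2.26 in plasma-lineage cells. *Bax* ranged from -0.0676 to 0.0102 between plasma-lineage and GC B-like cells. The value of other sign was the one without the library labelled *Smc3* wt/- replicate 2 for *Bcl2a1b*, *Bak1* and *Bcl2*, and the one without *Smc3* wt/- replicate 1 for *Bid* and *Bax*. *Bcl2l11*, called lower in centrocyte-like cells, stood at 0.0849 at resolution 1. Library totals without TMM turned none of the member differences given above between classes or states. Plasma cell-like cells were too few for a test, and over all 6 libraries *Bbc3* and *Pmaip1* could not be tested between genotypes in naive/memory-like and plasma-lineage cells, nor *Bcl2l1* in the former.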
